A study of Drosophila melanogaster with 48 samples.

Results

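Metallothioneins are small, cysteine-rich proteins that bind copper, zinc and cadmium in the cell. In Drosophila their transcription is switched on by the factor MTF-1, which binds metal response elements in their promoters when metal is plentiful, and the midgut is a well-known site of their expression. MtnA is best known for its response to copper and MtnB for its response to cadmium, while MtnC and MtnD are regarded as lesser members of the family.

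The 4 metallothionein genes described here, MtnA, MtnB, MtnC and MtnD, were taken by gene symbol from the annotation of the array. Each had 1 probe set, and all 4 were among the 11261 probe sets tested of 18769 measured, or 4 of 9419 tested genes. They were chosen because MtnC and MtnD were already known to be higher on tomato medium in these arrays. Their tomato differences are therefore given as a description, with no test. MtnE and MtnF, the remaining family genes of the list, had no probe set under those symbols.

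The study profiled whole adult Drosophila melanogaster with 48 one-colour Affymetrix arrays, under a title that refers to gene expression and olfactory behaviour. Larvae of 8 numbered lines (158, 304, 362, 379, 380, 774, 786 and 859) were raised on medium enriched with tomato paste, on medium with 9% ethanol, or on standard cornmeal-molasses medium. Every line was profiled on every food, 24 combinations in all, with 2 arrays per combination, 16 per food and 6 per line. All adults were kept on standard medium at 25 °C with 12 h of light, so the food comparisons concern larval food as read in adults. What the line numbers stand for is not stated in the labels, nor is the sex of the flies; 4 arrays carry an age of 3 to 5 days. Whether duplicate arrays represent separate cultures is not stated either. The limma p-values between lines and of the line by medium interaction therefore measure only the spread between duplicates, which may be technical. Those between foods in the main fit, and those between title spellings, set the difference against its variation between lines. In RNA of whole flies, fewer cells of a type and less RNA per cell cannot be told apart.

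The titles are spelled in 2 ways. A hyphen precedes the array number on 11 tomato, 4 ethanol and 0 standard arrays, and a space on 5 tomato, 12 ethanol and 16 standard arrays. Tomato medium and the hyphen spelling therefore overlap strongly. Values over all 16 tomato arrays mix both spellings, and the split by spelling follows them. The signals are the authors' MAS5 values, on a linear scale on which every array had a trimmed mean of 500.009 to 500.016, and the median signal of an array ranged from 85.9 to 163.0. Duplicate arrays correlated at 0.783 to 0.991 (median 0.959). Differences in signal are taken between arrays for 1 probe set at a time. A rank or share of the brightest signal within an array is given only to place bright or weak readings.

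On the third chromosome's right arm (3R), in the gene order of RefSeq assembly Release 6 plus ISO1 MT, MtnA lies far from the others, with 1524 annotated genes between it and MtnC. MtnC, MtnB and MtnD lie close together. There are 7 genes between MtnC and MtnB and 2 between MtnB and MtnE. MtnE and MtnD are adjacent, with 0 genes between them.

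MtnA was bright on all 48 arrays. Its signal ran from 10369 to 23288 with a median of 17934, and it reached 50.2% to 100% of the brightest signal of its array. The span across arrays was much wider for the remaining genes. MtnB ran from 1.61 to 1443 with a median of 180. MtnC ran from 890 to 13394 with a median of 2849. MtnD ran from 69.3 to 7324 with a median of 1106.

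**Figure D1:**
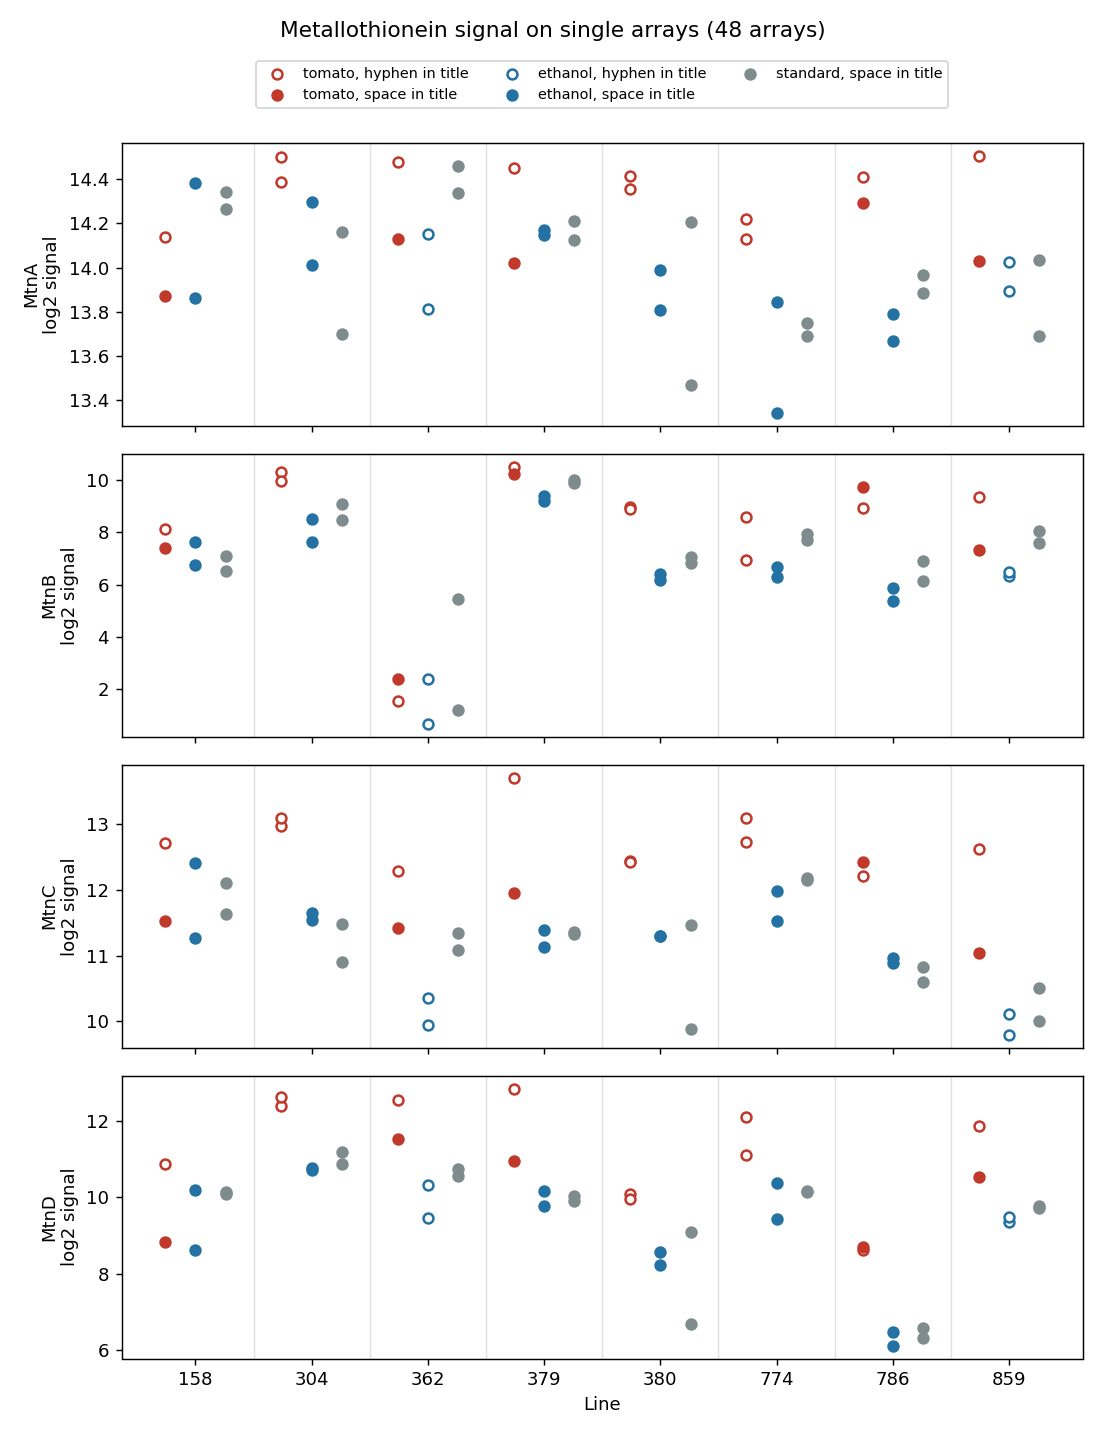
Log2 signal of MtnA, MtnB, MtnC and MtnD (vertical axes, 1 panel per gene) on each of the 48 arrays, by line (horizontal axis), with tomato, ethanol and standard arrays from left to right within a line. Open circles are arrays with a hyphen in the title and filled circles those with a space; MtnB is lowest in line 362 and MtnD in line 786 on each food.

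Tomato medium stood out for MtnC and MtnD. MtnC had signals of 2097 at the lowest, 5538 at the median and 13394 at the highest on the 16 tomato arrays, against 948, 2594 and 4650 on the 16 standard arrays. As mean log2 signals this was 12.42 ± 0.47 on tomato and 11.18 ± 0.63 on standard medium (SD, n = 8 lines). The tomato mean was higher in 8 of 8 lines, and in 7 of them both tomato arrays exceeded both standard arrays. The exception was line 158, with 6693 (hyphen) and 2960 (space) on tomato against 3195 and 4410 on standard medium.

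MtnD had signals of 390, 2085 and 7324 (lowest, median, highest) on tomato arrays, against 79.3, 1065 and 2333 on standard arrays. Its mean difference was 1.47 log2 units (SE 0.19), the size of a 2.77-fold difference, and it was higher on tomato in 7 of 8 lines. In those 7 lines no tomato array overlapped a standard array. Line 158 again departed from the rest, with MtnD at 1862 (hyphen) and 457 (space) on tomato against 1132 and 1084 on standard medium.

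MtnB was higher on tomato medium in 6 of 8 lines, with a mean difference of 0.83 (SE 0.34). The signals were 2.96, 482 and 1443 (lowest, median, highest) on tomato arrays, against 2.29, 165 and 1009 on standard arrays. The lines differed widely: the difference ran from -1.34 in line 362, where MtnB was weak on every array, to 2.82 in line 786. In line 786 MtnB read 488 (hyphen) and 854 (space) on tomato, against 69.9 and 119 on standard medium.

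MtnA differed by 0.25 log2 units (SE 0.09). It read 14961, 20499 and 23288 (lowest, median, highest) on tomato arrays, against 11314, 17335 and 22527 on standard arrays. In 4 lines both tomato arrays exceeded both standard arrays, in 3 the arrays overlapped, and in line 158 both tomato arrays (18023 with a hyphen, 14961 with a space) lay below both standard arrays (20771 and 19690). MtnA stood near the top of the scale, at a median of 93.0% of the array's brightest signal on the hyphen tomato arrays, 89.0% on the space tomato arrays and 74.7% on the standard arrays. It was itself the brightest probe set on 2 hyphen tomato arrays. Whether its differences were compressed there was not tested. The 4 genes' median difference was 1.03, beside a median of -0.0098 over all tested probe sets. As the genes were chosen with this difference known, that gap follows in part from the choice. Between tomato and standard medium limma called 1.15% of probe sets on the means of a line and food. Fitted on single arrays it called 685 probe sets, and 0 with spelling as a block or in the space arrays alone.

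The tomato and ethanol arrays, which share the tomato samples with the comparison above, gave these values. MtnB was 1.71 log2 units higher on tomato (SE 0.34), with signals of 2.96, 482 and 1443 (lowest, median, highest) on tomato arrays against 1.61, 86.7 and 673 on ethanol arrays. MtnC was 1.32 higher (SE 0.18), with an ethanol range of 890 to 5440. MtnD was 1.72 higher (SE 0.19), with an ethanol range of 69.3 to 1741. MtnA was 0.32 higher (SE 0.09), with an ethanol range of 10369 to 21368. MtnB, MtnC and MtnD were higher on tomato in 8 of 8 lines and MtnA in 7 of 8. Between tomato and ethanol medium limma called 0.107% of all probe sets.

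Split by title spelling, the tomato arrays differed among themselves. MtnC exceeded both standard arrays of its line on 11 of 11 hyphen arrays and on 4 of 5 space arrays, and MtnD did the same. MtnB did so on 9 of 11 hyphen and 3 of 5 space arrays. MtnA did so on 10 of 11 hyphen arrays but on 1 of 5 space arrays, and 3 of those 5 lay below both standard arrays. Relative to the mean of the line's standard arrays, hyphen arrays had a median MtnC difference of 1.74 (range 0.56 to 2.37) and space arrays one of 0.61 (range -0.34 to 1.72). For MtnD the medians were 1.96 on hyphen arrays and 0.88 on space arrays.

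**Figure D2:**
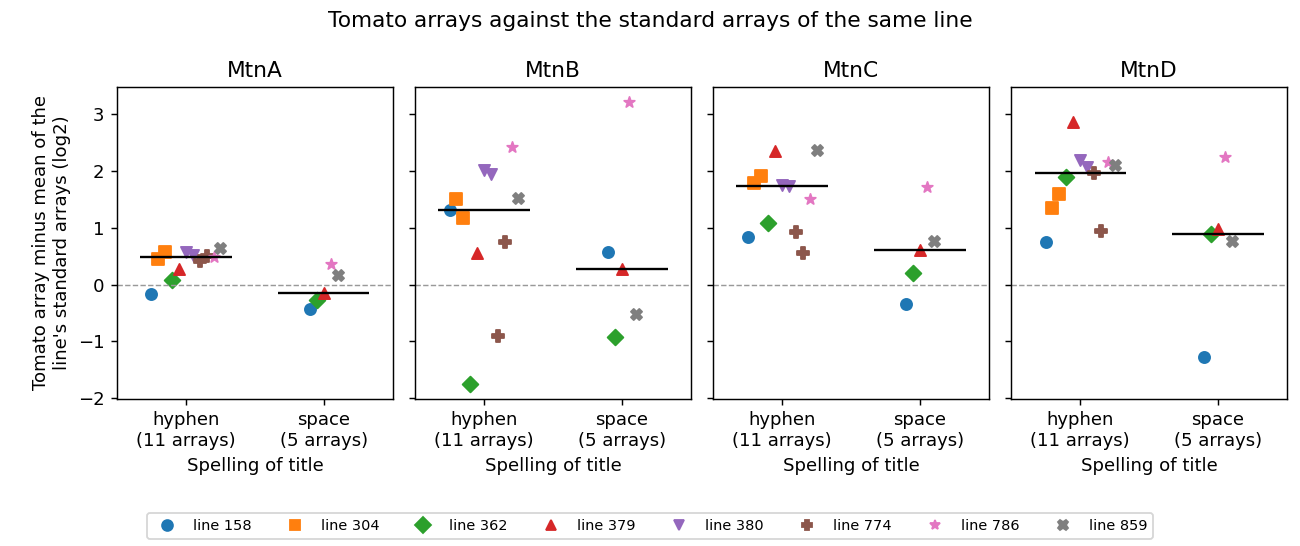
Log2 signal of each of the 16 tomato arrays minus the mean of the 2 standard arrays of its line (vertical axis), for arrays with a hyphen and with a space in the title (horizontal axis), 1 panel per gene; symbols mark lines and bars mark medians. MtnC and MtnD lie above 0 on 11 of 11 hyphen arrays and on 4 of 5 space arrays, with line 158 below 0.

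In 5 lines there was 1 tomato array of each spelling, which allowed the spelling to be tested within line and food. These arrays also belong to the tomato comparison by which the genes were chosen. The p-values and calls of the genes between spellings are therefore not free of that choice. MtnD was 1.24 log2 units higher on the hyphen arrays (SE 0.27, adjusted p = 0.010 with limma and Benjamini-Hochberg adjustment over all probe sets), in 4 of 5 lines. Its signals were 7324 against 1981 in line 379, 1862 against 457 in line 158, 5955 against 2951 in line 362 and 3711 against 1471 in line 859, hyphen against space. Line 786 showed no such gap, at 390 (hyphen) and 413 (space).

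MtnC was 1.04 higher on hyphen arrays (SE 0.25, limma adjusted p = 0.0136), also in 4 of 5 lines. It read 13394 against 3973 in line 379 and 6319 against 2097 in line 859, hyphen against space, whereas line 786 had 4754 (hyphen) and 5519 (space). Without line 158 the MtnC difference was 1.00 and its limma adjusted p 0.054. MtnA was 0.33 higher (SE 0.08, limma adjusted p = 0.012), in 5 of 5 lines. The MtnA call did not hold with arrays centred on their medians (0.19, adjusted p = 0.20) or quantile normalised (0.17, adjusted p = 0.069), or with no filter on low signal (adjusted p = 0.054). Array medians themselves were 0.135 log2 units higher on the hyphen arrays. MtnC and MtnD kept their calls after centring, at 0.90 (adjusted p = 0.0087) and 1.10 (adjusted p = 0.0044). MtnB differed by 0.28 (SE 0.39, adjusted p = 0.56 with limma) and by -0.16 without line 859. Of the 4 genes 3 were called higher, in a comparison that called 43.1% of all probe sets and 17.9% as higher.

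The space arrays alone, which hold tomato samples of 5 lines, gave smaller tomato differences. This fit, like those with spelling as a block or with the eggshell index, used single arrays. The SEs given with it count duplicates of a line and food as separate, so they are not like those of the main fit. MtnC was 0.62 higher than on standard medium (SE 0.23), MtnD 0.76 (SE 0.33) and MtnB 0.49 (SE 0.48). MtnA was at -0.036 (SE 0.12), so its direction on tomato medium was not kept. Line 786 had the highest space array for all 4 genes relative to standard medium. There MtnC read 5519 against standard signals of 1549 and 1823, and MtnD read 413 against 79.3 and 96.0. With spelling as a block, the tomato minus standard differences were 0.12 for MtnA, 0.70 for MtnB, 1.08 for MtnC and 1.15 for MtnD. This block takes the shift between spellings to be the same on tomato and ethanol medium, which was not tested. No line had ethanol arrays of both spellings, so these values may not remove the shift seen within the tomato pairs.

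None of the 4 ethanol arrays with a hyphen exceeded both standard arrays of its line in MtnC or MtnD. In line 362 MtnC read 1307 and 989 on them, against 2171 and 2609 on standard medium. In line 859 it read 1105 and 890, against 1023 and 1464. MtnD there read 1284 and 707 against 1494 and 1710 in line 362. In line 859 it read 652 and 717 against 876 and 842.

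Among the tomato arrays, an index of eggshell genes, which are expressed by ovarian follicle cells, was lower on the hyphen array in 5 of 5 pairs. The index was the mean log2 signal of the 13 measured genes of a list of 15. It ranged from 3.60 to 12.36 on the hyphen tomato arrays, median 9.85, and from 11.82 to 13.36 on the space tomato arrays, median 12.20. On ethanol medium the split ran otherwise, with 11.98 to 12.77 on the 4 hyphen arrays and 4.57 to 12.70 on the 12 space arrays. On the standard arrays it ran from 11.79 to 13.23. With the index as a covariate, the tomato minus standard differences were 0.15 for MtnA, 0.71 for MtnB, 1.04 for MtnC and 1.20 for MtnD. Without the 9 arrays of lowest index they were 0.19, 0.78, 1.11 and 1.25 in the same order of genes. The index of the Malpighian tubules, the fly's renal organ, also differed by food and by spelling, with no test made of it. Over 3 measured genes of 5 it averaged 8.72 on tomato and 8.31 on standard medium, with the tomato mean higher in 8 of 8 lines. It ranged from 7.98 to 9.37 on tomato and from 7.57 to 8.91 on standard arrays. Within the tomato pairs it was higher on the hyphen array in 5 of 5 lines, by 0.54 on average. The midgut protease index (13 of 16 genes) was higher on tomato in 3 of 8 lines, at 10.18 to 12.18 on tomato and 10.78 to 12.12 on standard arrays. Of the copper cell pair, 1 of 2 genes was measured, and it was higher on tomato in 6 of 8 lines, at 7.61 to 9.70 on tomato and 7.12 to 9.55 on standard arrays. The yolk and accessory gland indices were each higher on tomato in 1 of 8 lines, with mean differences of -0.39 and -0.17. Within the tomato pairs they were higher on the hyphen array in 1 of 5 and 0 of 5 lines. The testis, fat body, photoreceptor, neuron and muscle indices were higher on tomato in 3 to 5 of 8 lines. The part of these gut, tubule and other markers in the metallothionein differences was not tested.

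**Figure D3:**
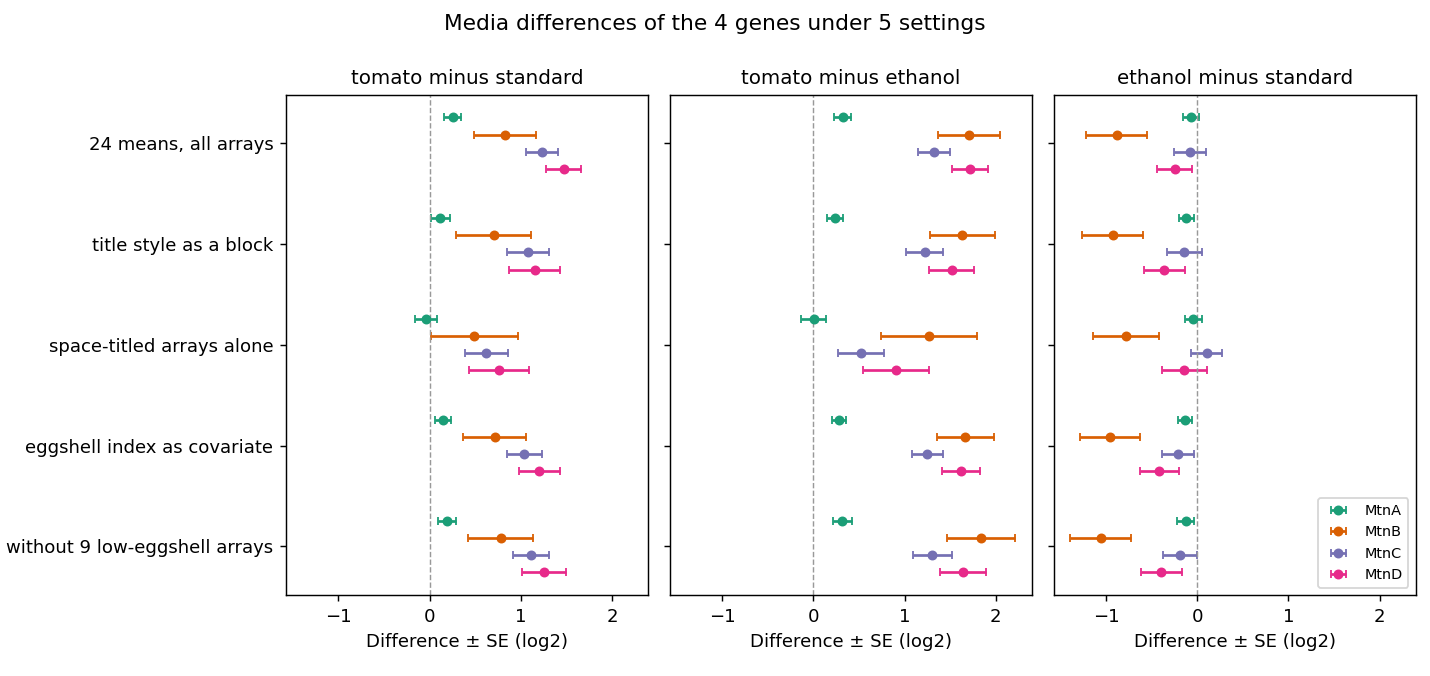
Difference in log2 signal (horizontal axes, points with bars of 1 SE) of MtnA, MtnB, MtnC and MtnD between foods, for tomato minus standard, tomato minus ethanol and ethanol minus standard, under 5 settings (rows). MtnC and MtnD lie above 0 in every row of both tomato panels, at 0.62 and 0.76 against standard medium in the space-titled arrays alone, where MtnA lies at -0.036.

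Ethanol and standard medium were compared with a test, since the genes were not chosen on that difference. The standard arrays did enter the tomato comparison that chose them, so the test is not fully independent of the choice. None of the 4 genes was called, and limma called 0 of 11261 probe sets (0%), with 628 at an unadjusted p under 0.05. MtnB came nearest, with signals of 1.61, 86.7 and 673 (lowest, median, highest) on ethanol arrays, against 2.29, 165 and 1009 on standard arrays. Its mean log2 signal was 6.36 ± 2.26 on ethanol and 7.24 ± 1.94 on standard medium (SD, n = 8 lines). The difference was -0.88 (95% confidence interval -1.59 to -0.17, limma adjusted p = 0.84, unadjusted p = 0.0178), with a lower ethanol mean in 7 of 8 lines. In 5 lines both ethanol arrays lay below both standard arrays.

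MtnD differed by -0.25 (95% confidence interval -0.66 to 0.16, limma adjusted p = 0.84). MtnC differed by -0.08 (-0.45 to 0.29, limma adjusted p = 0.91). MtnA differed by -0.07 (-0.26 to 0.12, limma adjusted p = 0.87). The test of whether the ethanol difference varied between lines called none of the 4 genes. For MtnC both ethanol arrays lay above both standard arrays in 2 lines and below them in 2 others. Its unadjusted limma p for the interaction was 0.11. The limma adjusted p of the line by medium interaction was 0.87 for MtnC and 0.99 for each of the other genes, and the interaction called 0.00888% of probe sets, with 719 at an unadjusted p under 0.05.

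The lines themselves differed in MtnB, MtnC and MtnD. On standard medium, whose arrays share 1 title spelling, 3 of the 4 genes were called, in a comparison that called 48.6% of all probe sets, so a call by itself was common. Over all media the same 3 genes were called, against 61.8% of all probe sets.

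MtnD spanned a 23.9-fold range of line means on standard medium (limma adjusted p = 0.00024), the equivalent of 4.58 log2 units. From high to low its signals were 2333 and 1872 in line 304, 1494 and 1710 in line 362, and 1147 and 1128 in line 774. Lines 158 (1132 and 1084), 379 (961 and 1046) and 859 (876 and 842) followed. The lowest were line 380, with 103 and 543, and line 786, with 79.3 and 96.0. Of the 7 pairs of neighbours in this order 6 had separate arrays, and lines 774 and 158 overlapped. Line 786 was also the lowest for MtnD on tomato (390 with a hyphen, 413 with a space) and on ethanol medium (69.3 and 89.2), and line 304 the highest on both. Without line 786 the lines still differed in MtnD (limma adjusted p = 0.013 on standard medium).

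MtnB spanned a 97.9-fold range (limma adjusted p = 0.0037), with line 379 at the top (1009 and 952) and line 362 at the bottom (43.8 and 2.29). Line 304 was second with 542 and 357. Lines 774 (209 and 246) and 859 (193 and 264) overlapped each other. Lines 380 (115 and 132), 158 (90.6 and 137) and 786 (69.9 and 119) overlapped in order, so 4 of 7 neighbouring pairs were separate. In line 362 MtnB read 2.96 (hyphen) and 5.28 (space) on tomato, 5.31 and 1.61 on ethanol, and 43.8 and 2.29 on standard medium. On the array that read 43.8, 35.0% of probe sets had lower signals. On the other 5 arrays 1.88% to 10.98% did, so MtnB was there among the weakest readings and its fold differences are uncertain. Without line 362 the limma adjusted p of MtnB on standard medium was 8.6e-05.

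MtnC spanned a 3.75-fold range (limma adjusted p = 0.0176). Line 774 was highest, with 4539 and 4650, followed by line 158 with 3195 and 4410. Lines 379 (2642 and 2578), 362 (2171 and 2609) and 304 (1909 and 2856) came next and overlapped. Lines 786 (1549 and 1823) and 380 (948 and 2841) followed. Line 859 was lowest, with 1023 and 1464, on tomato and ethanol medium as well as on standard medium. Only 3 of the 7 neighbouring pairs were separate on standard medium. The MtnC call rested on single arrays. The limma adjusted p was 0.0517 without the first and 0.0522 without the second standard array of line 774, and 0.0513 without the first of line 859.

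MtnA spanned a 1.60-fold range on standard medium, between line 362 (20729 and 22527) and line 774 (13771 and 13213), and 6 of 7 neighbouring pairs overlapped. Lines 158 (20771 and 19690) and 379 (17892 and 18991) were the only neighbours with separate arrays. The lines were not called different (limma adjusted p = 0.11). Line 380 had unequal duplicates, at 11314 and 18937. Without the first of these arrays the adjusted p was 0.025 and without the second 0.0059. Quantile normalisation gave 0.047 and centring on the array median 0.021. That first array of line 380 also had the lowest MtnC (948) and MtnD (103) signals of its line and the lowest median signal of all 48 arrays, 85.9. Without it, the tomato minus standard differences were 0.21 for MtnA, 0.81 for MtnB, 1.14 for MtnC and 1.32 for MtnD.

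The highest and lowest lines differed between genes. On standard medium line 362 was highest for MtnA and lowest for MtnB, and line 774 was lowest for MtnA and highest for MtnC. The lines were not called different in MtnA, and its order changed with food. MtnA was highest in line 304 and lowest in line 158 on tomato, and highest in line 379 and lowest in line 774 on ethanol medium. Over the 8 line means on standard medium, 6 pairs of genes were correlated and none passed an exact permutation test. MtnC and MtnD had Pearson's r = 0.47 and Spearman's rho = 0.52 (two-sided exact permutation p = 0.24 for r, 0.82 after adjustment over 6 pairs). Without lines 774 and 859 their r was 0.70. MtnA and MtnB had r = -0.45 and rho = -0.31 (exact permutation, adjusted p = 0.82), and r = 0.66 without lines 158 and 362, so the sign rested on those lines. MtnB and MtnD had r = 0.10, and 0.78 without lines 362 and 379, so that value rested on those lines.

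Within a combination of line and food, MtnA, MtnC and MtnD were correlated between the 2 arrays when both spellings were included. Over the 24 differences between duplicates, MtnC and MtnD had r = 0.84 and rho = 0.66 (two-sided permutation, adjusted p = 0.00012 for r and 0.0036 for rho over 6 pairs). Leaving out the 2 combinations farthest out gave r = 0.81. MtnA and MtnD had r = 0.74 and rho = 0.59 (permutation, adjusted p = 0.00012 and 0.0073), and MtnA and MtnC r = 0.66 and rho = 0.55 (0.00076 and 0.0124). The 3 pairs with MtnB had r of 0.22 to 0.31 and did not pass.

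In 5 of the 24 combinations, all on tomato medium, the duplicates differed in spelling. In the 19 combinations with 1 spelling, MtnC and MtnD had r = 0.77 (permutation, adjusted p = 0.0050) and rho = 0.40 (adjusted p = 0.27). Without line 380 on standard and line 158 on ethanol medium, r was 0.24, so within 1 spelling it rested on those duplicates. In line 158 on ethanol medium MtnC read 2457 and 5440 and MtnD 391 and 1173 on the 2 arrays. MtnA and MtnD had r = 0.71 in the 19 combinations (permutation, adjusted p = 0.0050), rho = 0.45 (adjusted p = 0.27), and r = 0.44 without the 2 farthest. MtnA and MtnC had r = 0.59 (permutation, adjusted p = 0.023) and rho = 0.30 (adjusted p = 0.44). Within 1 spelling, then, no pair passed by rank.

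**Figure D4:**
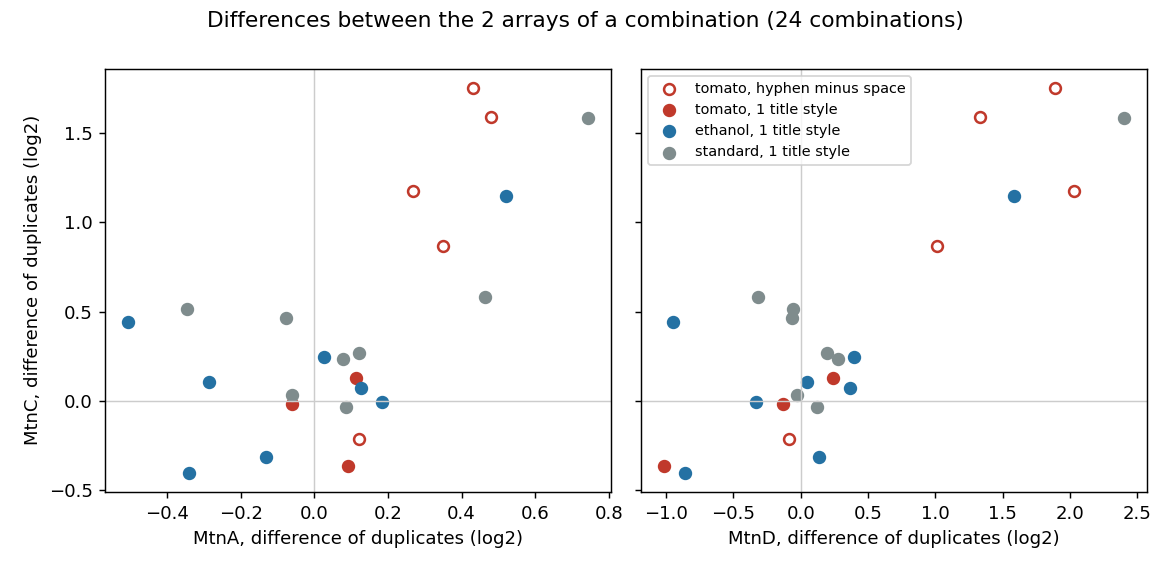
Difference in log2 signal between duplicate arrays in the 24 combinations of line and food, MtnC (vertical axis) against MtnA (left) and MtnD (right). Open circles are tomato pairs, hyphen array minus space array; filled circles are pairs of 1 spelling, higher array number minus lower. MtnC and MtnD have r = 0.84 over the 24 points.

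The genes most like each metallothionein were listed by Pearson's r of log2 signal over the 48 arrays after removal of the line mean, a description over arrays that share food, spelling and depth. MtnC and MtnD were each other's closest among all tested genes (r = 0.93). Both were chosen as known to be higher on tomato medium, and food was not removed here. Their closeness therefore follows in part from that choice. Outside the family MtnC was closest to Ag5r (0.80), CG15408 (0.79) and CG32032 (0.78), and MtnD to Ag5r (0.82), CG13658 (0.79) and Phae1 (0.77). MtnA was closest to Fer1HCH, which encodes a ferritin heavy chain subunit (0.84), then Ag5r (0.80) and Arr2, a photoreceptor arrestin (0.79), beside 0.80 with MtnD and 0.77 with MtnC. MtnB had weaker neighbours, CG7916 (0.597), SelG (0.595) and Phae1 (0.594). Over the 8 line means on standard medium the closest were Vps13 (0.95), CG1640 (0.94) and Men-b (0.94) for MtnA. For MtnB they were ckn (0.97), CG2921 (0.96) and CASK (0.93). For MtnC they were CG32196 (0.95), betaTub60D (0.95) and Sox14 (0.92), and for MtnD CG11951 (0.99), Loxl2 (0.97) and Cyp12c1 (0.96). With 8 points and 9415 candidate genes, values of this size are a ranking only.

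Other genes of metal handling gave a wider setting. Of a list of 41, which holds transporters of zinc and copper, iron storage and carrier proteins, MTF-1 and genes of the glutathione and oxidative response, 36 were tested. Between ethanol and standard medium 0 of 36 were called, with a median difference of 0.022. At an unadjusted p under 0.05 there were 4, beside 628 of all 11261 probe sets. The smallest p belonged to the iron carrier transferrin Tsf1, at -0.62 (SE 0.16, limma adjusted p = 0.75). Keap1, a sensor of oxidative stress, differed by 0.32, the zinc transporter Zip102B by 0.58 and the iron regulatory gene Irp-1A by -0.15, none of them called.

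Between tomato and standard medium 0 of the 36 were called either (12 at an unadjusted p under 0.05), with 24 higher, 12 lower and a median of 0.065. Of all 11261 probe sets 2383 were at an unadjusted p under 0.05, and 48.3% were higher on tomato. The zinc transporter gene Zip71B (0.57, SE 0.14, limma adjusted p = 0.056) and the gene Zip99C (0.25, SE 0.06, limma adjusted p = 0.058) were highest in rank. Tsf1 followed at -0.62 (limma adjusted p = 0.066) and the zinc exporter gene ZnT35C at -0.39 (limma adjusted p = 0.076). MTF-1 differed by 0.17 (SE 0.11, limma adjusted p = 0.34). Between tomato and ethanol medium 0 of 36 were called. At an unadjusted p under 0.05 there were 9, beside 757 of all 11261 probe sets. The smallest p belonged to Zip48C (0.23), Zip99C (0.23), Zip42C.2 (-0.57) and Fer2LCH (0.19).

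Between spellings, within the 5 tomato pairs, 11 of 36 metal genes (30.6%) were called, 8 higher and 3 lower on hyphen arrays, below the share of all probe sets. Zip71B was 0.97 higher (SE 0.19, limma adjusted p = 0.0063), and the ferritin subunit genes Fer1HCH (0.40, adjusted p = 0.0091) and Fer2LCH (0.55, adjusted p = 0.010) and the transferrin gene Tsf3 (0.66, adjusted p = 0.020) were higher as well. Between lines on standard medium 20 of 36 (55.6%) were called, near the 48.6% of all probe sets, with cnc, Irp-1B, Gclc and Zip42C.2 lowest in p. Over all media 24 of 36 (66.7%) were called, near the 61.8% of all probe sets, with cnc, Irp-1B, Zip102B and Catsup lowest in p. The line by medium interaction called 0 of 36, with 4 at an unadjusted p under 0.05, beside 719 of all 11261 probe sets. ZnT35C had the lowest adjusted p of 0.40 with limma, followed by Tsf1, ZnT41F and cnc.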

How the data were processed

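RNA of whole adult flies was measured on 48 arrays, 5 µg of it labelled per array, per the labels. The deposited values are unlogged signal intensity values. The submitters' processing notes name MAS5 without a version, and detection calls were not used here. Probe sets were named where the platform table gave 1 symbol (13647 of 18769 after 183 of 18952, the controls, were left out; 402 had several and 4720 none listed). Of those named, 13544 matched RefSeq's table of fly genes (assembly Release 6 plus ISO1 MT), which served for names and gene order only. No build is named for the probes.

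Signals were set to a floor of 1, taken to log2, and the 60% of probe sets with the highest mean log2 signal kept (geometric mean of at least 59.71). Fits were made on all 11261 with limma 3.58.1 in R 4.3.3 (lmFit, eBayes with an intensity trend), with Benjamini-Hochberg adjustment and a threshold of 0.05. Media were compared on the 24 means of a line and food, with line and medium as terms (14 residual degrees of freedom). Lines were compared by F-tests on the 16 standard arrays and on all 48, the interaction on the 32 ethanol and standard arrays, and title spelling within 5 tomato pairs. Correlations used exact permutation over 8 lines or 100000 permutations over duplicate differences; 2e-05 is the smallest p these can give. The fits were tested on simulated data.

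The genes, lists and tests were chosen with earlier results of these data known. The named genes are the 4 metallothionein genes, in each comparison up to 4 metal genes of smallest p, and the 3 genes of highest r with each metallothionein gene. MTF-1 was added after its values were seen, as were the correlations over duplicates.

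Alternatives were quantile normalisation, median centring, other filters, 16 added to the signal, single arrays, spelling or array number as a block, an eggshell covariate, and leaving out arrays or lines. The number of arrays limits the precision.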

Additional observations from a re-analysis of the deposited data

Results flagged for a closer look

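Signals far from the rest of their set were sought by Dixon's test in 44 sets. Each set held the 6 arrays of a line, over all foods, or the 8 line means of a food. In all, 4 were found, where chance gives about 1 in 20, or 2.2 here. Of these 4, 3 belong to MtnB in line 362. Its log2 mean of 1.98 on tomato medium and of 1.55 on ethanol medium stood far below the other 7 line means of the same food. Within line 362, the first standard array, with an MtnB signal of 43.8, stood far above the other 5 arrays, which read 1.61 to 5.31. The remaining one was MtnC in line 379, where the hyphen tomato array read 13394, against 3973 on the space tomato array and no more than 2676 on the ethanol and standard arrays of that line. MtnD was also highest of all 48 arrays on that array, at 7324.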

How the results depend on the processing

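Of 847 recomputed values of the 4 genes and their pairs, 810 kept both direction and side of the threshold or moved by less than 1 SD, 15 changed sign, 18 crossed the threshold and 4 moved by more than 1 SD over lines. In the arrays titled with a space alone, the tomato minus standard difference was -0.036 for MtnA, opposite in direction, and 0.62 for MtnC; the tomato minus ethanol difference was 0.0042 for MtnA, 0.52 for MtnC and 0.90 for MtnD. The hyphen minus space difference of MtnA lost its limma call under quantile normalisation (0.17), median centring (0.19) and no filter (0.33). For lines, the limma adjusted p of MtnA passed on standard medium under quantile normalisation (0.0469) and centring (0.0207). Over all media it passed under quantile normalisation (0.00034), centring (0.00040), array number as a replicate block (0.0340) and the space arrays alone (0.0402). The ethanol minus standard difference changed sign for MtnA under quantile normalisation (0.029) and for MtnC in the space arrays alone (0.10); neither gene was called in any setting. Over line means, r changed sign for MtnA and MtnC (-0.25) and MtnA and MtnD (-0.15) under quantile normalisation, for MtnA and MtnB on tomato (0.15) and ethanol (0.33) medium, and for MtnB and MtnD on tomato medium (-0.19). MtnB fell outside the upper 40% of probe sets and has no value there.

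Array numbers showed no steady pairing of samples. Over the 7 lines whose ethanol and standard arrays share numbers, differences between duplicates correlated from -0.563 to 0.634, with 3 over 0.1. Over 28 pairs of standard combinations from different lines they ran from -0.487 to 0.575, with 6 over 0.1. Pairing within single lines was not tested. With array number as a replicate block, tomato minus standard was 0.04 for MtnA, 0.56 for MtnB, 0.85 for MtnC and 0.93 for MtnD.

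Leaving out 1 line at a time, tomato minus standard ran from 0.21 to 0.33 for MtnA, 0.54 to 1.14 for MtnB, 1.15 to 1.38 for MtnC and 1.37 to 1.72 for MtnD, and hyphen minus space from 0.86 to 1.35 for MtnC (limma adjusted p 0.0045 to 0.054) and -0.16 to 0.56 for MtnB, the lowest without line 859. Ethanol minus standard ran from -0.18 to 0.058 for MtnC, highest without line 362. The r over line means ran from -0.74 to 0.15 for MtnA and MtnB, -0.0054 to 0.77 for MtnA and MtnC, -0.016 to 0.17 for MtnB and MtnC, and -0.035 to 0.62 for MtnB and MtnD, none passing. Leaving out 1 array at a time, the limma adjusted p between lines on standard medium ran from 0.0059 to 0.23 for MtnA and from 0.00015 to 0.0522 for MtnC, and over all media from 0.0288 to 0.25 for MtnA, which passed without the second standard array of line 380 and without the first ethanol arrays of lines 158 (0.0483) and 774 (0.0471).

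Counts of called probe sets moved more. Between foods, the block, eggshell and space-array settings were fitted on single arrays, so their counts compare with the single-array count. Tomato minus standard called 129, against 209 with quantile normalisation, 73 with no filter, 685 with single arrays, 0 with spelling or array number as a block or in space arrays alone, 7 when the 9 arrays lowest in eggshell index were dropped and 25 with the index as a covariate. Tomato minus ethanol called 12, against 20 with single arrays, 2 with the spelling block, 0 with the number block, and 2 and 29 with the eggshell settings. Ethanol minus standard called 0, against 4 with single arrays, 13 with the spelling block, 40 in space arrays alone, 8 with the number block and 23 with the eggshell covariate. The interaction called 1, against 10 with quantile normalisation, 6 with centring, 49 with the eggshell covariate and 2 without line 362. Leaving out 1 line gave 2 to 2856 calls for tomato minus standard and 2 to 376 for tomato minus ethanol, both highest without line 379, and 3038 to 4811 for hyphen minus space. Leaving out 1 array gave 1 to 431 for the interaction, highest without the first ethanol array of line 158, and 3329 to 8098 for lines on standard medium. The cause was not tested. Weak signals, such as MtnB in line 362, have no detection call here, so their folds are the least certain.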
